A study of Mus musculus with 9 samples.

Results

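The genes described here move fatty acids from circulating triglyceride into and across the endothelium of the heart. The members are 9 genes, taken from the deposited table by symbol whatever their values: Lpl, Gpihbp1, Angptl4, Lipg, Cd36, Fabp4, Fabp5, Meox2 and Tcf15. They are 9 of the 18094 genes in the table. RNA was sequenced from heart endothelium of 2 inbred mouse lines, hypertensive BPH/2J and normotensive BPN/3J. There were 3 groups of 3 libraries: BPN/3J at 22 weeks of age, BPH/2J at 4 weeks and BPH/2J at 22 weeks. The labels name no treatment or transgene in any group, and do not say whether a library came from 1 mouse or a pool. Cells were pulled from fresh heart tissue with Miltenyi microbeads on an autoMACS instrument, and polyA RNA was read in single 100-base reads. No 4-week BPN/3J group was analysed here, so a line difference in the change with age could not be tested.

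Lipoprotein lipase, the product of Lpl, splits the triglyceride of lipoproteins at the capillary wall. It is made largely by cardiomyocytes and adipocytes, and GPIHBP1 of capillary endothelial cells carries it to the luminal surface and holds it there. ANGPTL4 inhibits the lipase, and endothelial lipase, from Lipg, acts mainly on the phospholipid of high density lipoprotein. CD36 takes up the released fatty acids, FABP4 and FABP5 bind them inside the cell, and the transcription factors MEOX2 and TCF15 act as a pair that is known to drive Cd36 and Lpl in heart endothelium.

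The sequences that bear most on a result are those of Fabp5 and of a near copy of it, Gm6166, because the reads of both touch the same comparison. Fabp5 lies at chr3:10012548-10016607 on the plus strand of GRCm38. Gm6166 lies at chr9:57483963-57484371, also on the plus strand, and GENCODE M21 annotates it as a processed pseudogene of 1 exon. Its 409 bases match the 408-base coding sequence of Fabp5 over 407 aligned positions, with 5 substitutions (T9C, T189C, C261T, G341C and T393C, Fabp5 base first, counted from 1 at the start of its coding sequence) and 2 bases that only Gm6166 has. The stretch below covers Fabp5 coding positions 169 to 281, and positions 169 to 283 of Gm6166, with the differing bases in capitals.
Fabp5: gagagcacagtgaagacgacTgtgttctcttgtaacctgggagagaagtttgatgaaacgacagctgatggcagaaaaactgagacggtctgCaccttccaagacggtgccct
Gm6166: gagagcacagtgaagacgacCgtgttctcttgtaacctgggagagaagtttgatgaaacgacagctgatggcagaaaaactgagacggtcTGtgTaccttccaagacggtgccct
The longest stretch of identical bases between them was 179, longer than the 100-base reads. How the authors' counting placed a read that fits both is not given in the sources used. No other member had an annotated transcript outside its own gene that matched it over at least 100 bases at 95% identity. Gm13998 and Gm14328, also near copies of Fabp5, were not analysed here.

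Across the members, the lipase and its anchor were lower in 22-week BPH/2J than in 22-week BPN/3J, Fabp5 was higher, and Cd36 and Fabp4 did not pass the test. Between 4 and 22 weeks in BPH/2J, Lpl, Gpihbp1, Cd36, Fabp4, Meox2 and Tcf15 rose, and Fabp5 and Angptl4 fell. At 22 weeks, 4 of the 9 members passed an adjusted p of 0.05 between the lines (2 higher and 2 lower in BPH/2J), where 38.0% of the 15277 tested genes did (19.8% higher and 18.2% lower). With age, 8 of 9 passed (6 higher and 2 lower at 22 weeks), against 41.0% of all tested genes (19.9% higher and 21.1% lower). The 4-week BPH/2J libraries differed from BPN/3J in all 9 members (3 higher and 6 lower), against 53.1% of tested genes (27.8% higher and 25.3% lower), but line and age cannot be told apart there. Lipg was counted as higher in BPH/2J in both comparisons with BPN/3J. It passed the filter on low counts through its BPH/2J libraries alone, so its calls are no support for these counts. Without it, 3 of 8 members passed between the lines at 22 weeks (1 higher and 2 lower), 8 of 8 with age (6 higher and 2 lower) and 8 of 8 for 4-week BPH/2J against BPN/3J (2 higher and 6 lower). The 3 comparisons share libraries, so their calls are not independent of one another. The median log2 difference of the members was 0.11 between the lines at 22 weeks, 0.29 with age and -0.36 for 4-week BPH/2J against BPN/3J, and over all tested genes it was 0.02, 0.01 and 0.00. Without Lipg the members' medians were -0.01, 0.36 and -0.40, so that between the lines changed sign. Group ranges stood clear of each other for 5, 8 and 8 of the 9 members in these comparisons (4, 8 and 7 of 8 without Lipg), against 55.7%, 51.2% and 59.2% of tested genes.

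**Figure D1:**
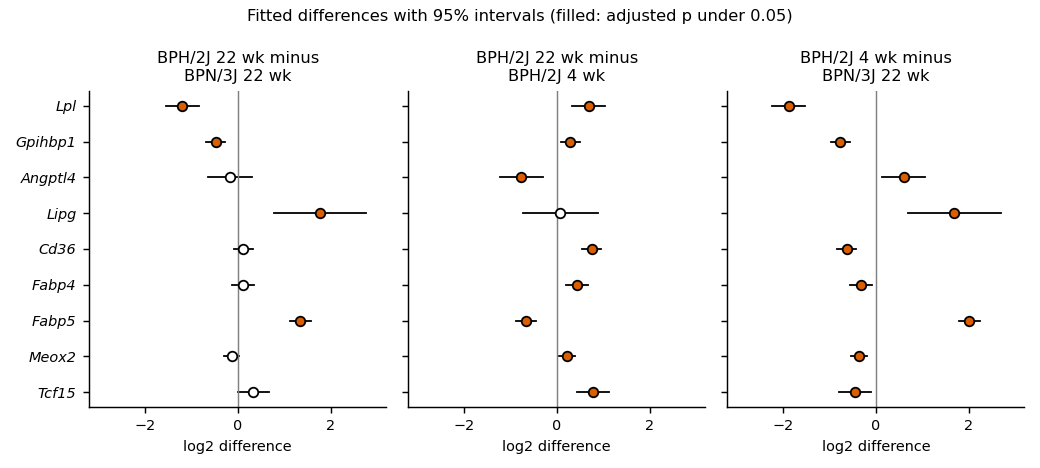
Fitted log2 difference (x axis, points) of each member (y axis) with its 95% interval (lines) in the 3 comparisons, one a panel; filled points passed an adjusted p of 0.05. Lpl was lower and Fabp5 higher in BPH/2J of either age than in BPN/3J, which was sampled at 22 weeks only. Cd36 and Fabp4 sit near 0 between the lines at 22 weeks and to the right of 0 with age.

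Depth ran from 28806840 to 32913813 counted reads a library, and together the members took 1.90%, 1.22% and 1.81% of counts on average in BPN/3J, 4-week BPH/2J and 22-week BPH/2J. The endothelial cadherin gene Cdh5 was abundant in all groups. Levels are in CPM, the read count scaled by library size. The sum of 10 endothelial markers was 11989 to 12471 CPM in BPN/3J, 13552 to 14713 in 4-week BPH/2J and 14752 to 14938 in 22-week BPH/2J. Of these markers, 6 were higher, Cdh5 among them, and 1 lower in 22-week BPH/2J than in BPN/3J, where 38.0% of all tested genes passed. With age 3 were higher and none lower, where 41.0% of all tested genes passed. Markers of other heart cells were also present in all groups, as given below. The mitochondrial share of counts was 1.19% to 2.78%, and the 4-week replicate 1, at 2.63%, lay above the other 4-week libraries at 1.19% and 1.33%. In bulk RNA of this kind, fewer cells of a type and less RNA per cell cannot be told apart. The labels do not tie replicates to different animals, and p-values therefore reflect only how far these libraries scatter, a scatter that could be technical. CPM values below carry trimmed-mean (TMM) scaling, means are given ± SD over the 3 libraries of a group, and differences are log2 values with their standard error (SE) and a Benjamini-Hochberg adjusted p over all tested genes from edgeR's quasi-likelihood test.

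**Figure D2:**
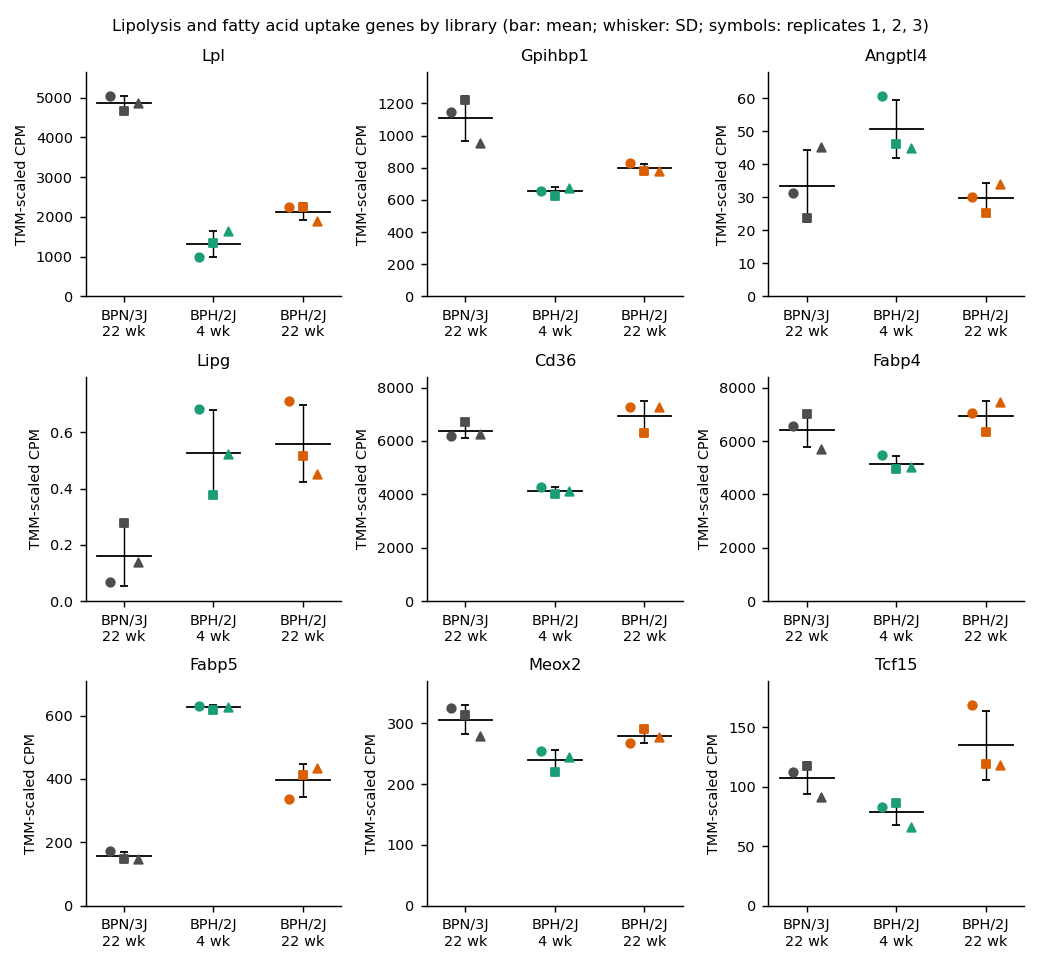
TMM-scaled CPM (y axis, from 0) of each member in the 9 libraries, by group (x axis); symbols mark replicates 1 to 3, horizontal bars the group mean and whiskers the SD. Lpl stands at 4671 to 5037 CPM in BPN/3J and at 981 to 2257 in BPH/2J, and Fabp5 keeps the reverse order, at 146 to 173 and 338 to 632 CPM.

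Lpl separated the 3 groups with no overlap. It stood at 5037, 4671 and 4862 CPM in BPN/3J, at 981, 1350 and 1634 in BPH/2J at 4 weeks and 2257, 2242 and 1884 at 22 weeks. Every BPN/3J library was thus above every BPH/2J library, and the 4-week libraries were the lowest and the most spread. At 22 weeks Lpl was 2.28-fold lower in BPH/2J than in BPN/3J (log2 -1.19, SE 0.16, adjusted p = 0.000301). In BPH/2J it rose 1.61-fold from 4 to 22 weeks (log2 0.69, SE 0.16, adjusted p = 0.00632). The 4-week libraries lay 3.67-fold below BPN/3J (log2 -1.88, SE 0.16, adjusted p = 6.63e-06).

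Cardiomyocytes are a main source of Lpl in the heart, so their markers stand here beside it. Summed over 13 markers with a row in the table, they lay at 910 to 1125 CPM in BPN/3J, 402 to 656 in 4-week BPH/2J and 536 to 649 in 22-week BPH/2J. Of the 12 markers tested, 8 were lower and none higher in BPH/2J than in BPN/3J at 22 weeks, and with age 2 were higher and none lower. Myh6, the main cardiac myosin heavy chain, stood at 154, 183 and 176 CPM in BPN/3J, at 56.0, 34.7 and 43.7 in BPH/2J at 4 weeks and 62.4, 74.2 and 63.9 at 22 weeks. Its groups followed the order of Lpl, again with no overlap. Myh6 was 2.56-fold lower in 22-week BPH/2J than in BPN/3J (log2 -1.36, SE 0.15, adjusted p = 6.83e-05). Per kilobase of gene length, Lpl exceeded Myh6 by 26.9 ± 3.47 times in BPN/3J, 29.4 ± 11.2 times in BPH/2J at 4 weeks and 30.1 ± 3.47 times at 22 weeks. The ratio ran from 16.5 to 36.6 among the 4-week libraries, a range that held all values of the other groups. Myh6 was picked with its values known, and the ratio to other markers was not computed. Mb, Tnnt2 and Pln did not pass between the lines at 22 weeks (1.26-, 1.34- and 1.15-fold lower in BPH/2J, adjusted p 0.135 to 0.431), while Ckm was 3.75-fold lower. With the mean log2 CPM of the cardiomyocyte markers as a covariate, the log2 difference of Lpl between the lines at 22 weeks was -1.83 (adjusted p = 0.00139), that of 4-week BPH/2J from BPN/3J -2.73 (adjusted p = 0.00115) and that with age 0.91 (adjusted p = 0.00102). The covariate was the mean over the 12 tested markers, without Myl7, and its own range is not given here. Over all 13 markers this mean ran from 4.99 to 5.17 in BPN/3J and 3.95 to 4.53 in BPH/2J, with no overlap. Every line difference fitted with the covariate is thus an extrapolation, and line and cardiomyocyte level cannot be told apart.

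Gpihbp1, the anchor of the lipase on capillaries, followed the same order of groups over a narrower span. Its levels were 1145, 1224 and 953 CPM in BPN/3J, 658, 624 and 677 in BPH/2J at 4 weeks and 831, 779 and 778 at 22 weeks. No 2 groups overlapped. Gpihbp1 was 1.39-fold lower in 22-week BPH/2J than in BPN/3J (log2 -0.48, SE 0.09, adjusted p = 0.00265). In 4-week BPH/2J it was 1.70-fold lower than in 22-week BPN/3J (log2 -0.76, SE 0.09, adjusted p = 6.51e-05). The rise with age was 1.22-fold (log2 0.29, SE 0.09, adjusted p = 0.0299). That rise did not pass without 4-week replicate 2 or 3 or 22-week replicate 1 or 3 (adjusted p 0.0508 to 0.0971). With the cardiomyocyte covariate none of the 3 differences passed, at adjusted p = 0.200 between the lines at 22 weeks, 0.0898 with age and 0.111 for 4 weeks against BPN/3J. The level of Lpl relative to Gpihbp1, both per kilobase, was 0.519 ± 0.0752 in BPN/3J, 0.237 ± 0.0558 in BPH/2J at 4 weeks and 0.312 ± 0.0270 at 22 weeks. The BPN/3J ratios, at 0.446 to 0.596, lay above all BPH/2J ratios, at 0.174 to 0.336. These ratios use the deposited gene lengths, and their size depends on the length used while their order over groups does not. By the longest protein-coding transcript in GENCODE M21, Lpl stood above Gpihbp1 in BPN/3J, at 1180 against 670 CPM per kilobase.

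Angptl4, the lipase inhibitor, was low next to its target and highest at 4 weeks. It reached 31.4, 23.7 and 45.2 CPM in BPN/3J, 60.7, 46.2 and 45.0 in BPH/2J at 4 weeks and 30.2, 25.1 and 34.1 at 22 weeks. The 4-week libraries lay above all 22-week BPH/2J libraries, and BPN/3J spanned the 22-week range and just reached the 4-week one. Angptl4 fell 1.70-fold with age in BPH/2J (log2 -0.77, SE 0.21, adjusted p = 0.0142), a call that did not pass without 22-week BPH/2J replicate 2 (adjusted p = 0.0528). Between the lines at 22 weeks the difference was -0.17 (95% interval -0.63 to 0.30, adjusted p = 0.557). The 4-week libraries were 1.51-fold above BPN/3J (log2 0.60, SE 0.21, adjusted p = 0.0324), with overlapping ranges, and adjusted p was 0.0901 without BPN/3J replicate 1, 0.107 without BPN/3J replicate 2 and 0.0924 without 4-week replicate 1.

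Lipg, for endothelial lipase, was at the edge of detection. Its reads numbered 2, 8 and 4 in BPN/3J, 21, 11 and 17 in BPH/2J at 4 weeks and 22, 16 and 14 at 22 weeks, where even a library with 0 reads leaves room for up to 3 (0.0911 to 0.104 CPM). Every BPH/2J library thus had more reads than every BPN/3J library, and 1 BPN/3J library was under that limit. Means were 0.162 ± 0.107 CPM in BPN/3J, 0.529 ± 0.153 in BPH/2J at 4 weeks and 0.560 ± 0.137 at 22 weeks. The log2 difference between the lines was 1.77 at 22 weeks (SE 0.45, adjusted p = 0.0111), and that of 4-week BPH/2J from BPN/3J was 1.69 (SE 0.45, adjusted p = 0.00954). The filter on low counts made these differences partly a condition of being tested. Without BPN/3J replicate 2 these differences were 2.39 and 2.32. With age the difference was 0.08 (95% interval -0.73 to 0.88, adjusted p = 0.883).

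Cd36, the fatty acid translocase, was among the most abundant transcripts of these libraries and differed with age. It stood at 6167, 6703 and 6270 CPM in BPN/3J, at 4265, 4011 and 4114 in BPH/2J at 4 weeks and 7281, 6300 and 7266 at 22 weeks. All 4-week libraries were below all others, and the 22-week groups of the lines overlapped. Cd36 rose 1.68-fold from 4 to 22 weeks (log2 0.75, SE 0.09, adjusted p = 0.000183). Between the lines at 22 weeks the difference was 0.12 (95% interval -0.09 to 0.33, adjusted p = 0.326). The 4-week libraries were 1.54-fold below BPN/3J (log2 -0.63, SE 0.09, adjusted p = 0.000286).

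Fabp4, the fatty acid binding protein typical of capillary endothelium and adipocytes, showed the same order of groups as Cd36 with a smaller change. Its levels were 6569, 7011 and 5707 CPM in BPN/3J, 5458, 4957 and 5044 in BPH/2J at 4 weeks and 7033, 6342 and 7467 at 22 weeks. Again the 4-week libraries were lowest without overlap. Fabp4 rose 1.35-fold with age (log2 0.43, SE 0.11, adjusted p = 0.00986). The difference between the lines at 22 weeks was 0.11 (95% interval -0.13 to 0.35, adjusted p = 0.443). The 4-week libraries were 1.25-fold below BPN/3J (log2 -0.32, SE 0.11, adjusted p = 0.0299). Adjusted p for that difference was 0.0812 without BPN/3J replicate 1, 0.118 without replicate 2, 0.0859 without 4-week replicate 2 and 0.0782 without 4-week replicate 3. It was 0.0658 with the legacy setting of edgeR off and 0.0504 in a fit on only the 2 groups compared. Adipocytes also make Fabp4 and Cd36. Of 11 adipocyte markers 4 were measured here, Cidea, Cfd, Acvr1c and Ucp1, and their sum was at most 1.44 CPM in any library, with Cfd at 0 counts in 3 libraries. The part of adipocytes in the results was not tested.

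Fabp5, the second fatty acid binding protein of endothelium, ran opposite to Fabp4 with age in BPH/2J and for 4-week BPH/2J against BPN/3J. It stood at 173, 146 and 147 CPM in BPN/3J, at 632, 619 and 628 in BPH/2J at 4 weeks and 338, 413 and 435 at 22 weeks. The 3 groups did not overlap, and the 4-week libraries lay close together. Fabp5 was 2.55-fold higher in 22-week BPH/2J than in BPN/3J (log2 1.35, SE 0.10, adjusted p = 5.57e-06) and fell 1.58-fold with age in BPH/2J (log2 -0.66, SE 0.10, adjusted p = 0.000523). The 4-week libraries were 4.03-fold above BPN/3J (log2 2.01, SE 0.10, adjusted p = 2.63e-07).

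The size of the line difference in Fabp5 depended on the copy whose sequence is shown above. Gm6166 had 2615, 2179 and 2104 reads in BPN/3J, 10, 12 and 8 in BPH/2J at 4 weeks and 9, 4 and 8 at 22 weeks. It was thus a sizeable transcript count in BPN/3J alone, at 79.3 ± 7.86 CPM against 0.328 ± 0.0841 and 0.226 ± 0.0861 CPM in the BPH/2J groups. Of the reads given to Fabp5 and Gm6166 together, Gm6166 took 33.8% in BPN/3J, 0.0524% in BPH/2J at 4 weeks and 0.0571% at 22 weeks. With the counts of both added, the level was 235 ± 23.2 CPM in BPN/3J, 626 ± 6.64 in BPH/2J at 4 weeks and 396 ± 50.8 at 22 weeks. The summed level was 1.69-fold higher in 22-week BPH/2J than in BPN/3J (log2 0.75, SE 0.10, adjusted p = 0.000264). In 4-week BPH/2J it was 2.67-fold higher than in 22-week BPN/3J (log2 1.42, SE 0.10, adjusted p = 1.92e-06). The fall with age kept its size (log2 -0.66, adjusted p = 0.000533). Which locus the Gm6166 reads came from was not tested, since the files hold counts and not reads.

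**Figure D3:**
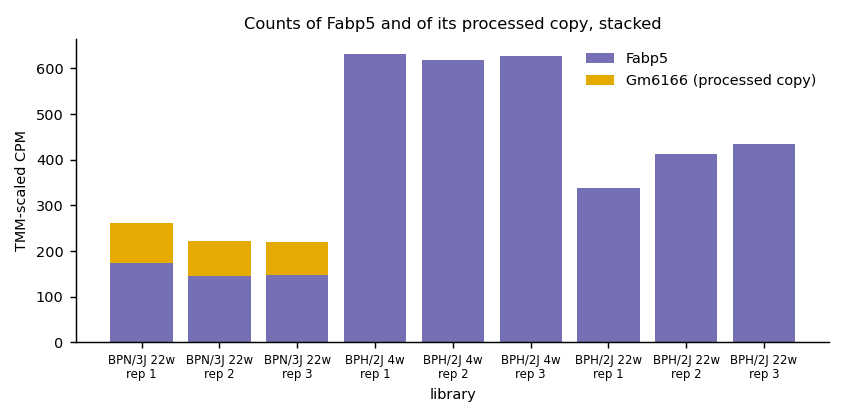
TMM-scaled CPM (y axis, from 0) of Fabp5 with that of its processed copy Gm6166 stacked on it, for each library (x axis). Gm6166 adds 73.8 to 88.3 CPM in the BPN/3J libraries and at most 0.414 CPM in any BPH/2J library, and the stacked BPN/3J bars stay below all BPH/2J bars.

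Per kilobase of the deposited gene length, Fabp4 exceeded Fabp5 by 233 ± 31.0 times in BPN/3J, by 46.1 ± 1.99 times in BPH/2J at 4 weeks and by 99.5 ± 15.5 times at 22 weeks. The 3 groups of ratios did not overlap. The deposited length of Fabp5, 3567 bases, is well above its longest protein-coding transcript of 987 bases in GENCODE M21, so the ratios themselves depend on the length used while their order over groups does not. The macrophage, another cell known for Fabp5, Fabp4, Cd36 and Lpl, was represented by 12 markers that summed to 450 to 744 CPM in BPN/3J, 485 to 903 in 4-week BPH/2J and 279 to 330 in 22-week BPH/2J. Of these, 10 were lower and none higher in 22-week BPH/2J than in BPN/3J, and with age 11 were lower and 1 higher. The part of macrophages in the differences of Fabp5, between the lines or with age, was not tested.

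Meox2 had the smallest span of group means, as a ratio, of the 9 members. It stood at 325, 313 and 279 CPM in BPN/3J, at 254, 219 and 244 in BPH/2J at 4 weeks and 268, 290 and 277 at 22 weeks. The 4-week libraries were lowest, below both other groups, and the 22-week groups overlapped. Meox2 rose 1.17-fold with age (log2 0.22, SE 0.08, adjusted p = 0.0414), but adjusted p was above 0.05, at 0.0569 to 0.154, without BPN/3J replicate 2, 4-week replicate 2 or 3, or any single 22-week BPH/2J library. Against BPN/3J the 4-week level was 1.28-fold lower (log2 -0.36, SE 0.08, adjusted p = 0.00292). Between the lines at 22 weeks the difference was -0.13 (95% interval -0.31 to 0.04, adjusted p = 0.194).

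Tcf15, the partner of Meox2, was highest in 22-week BPH/2J. Its levels were 112, 118 and 91.6 CPM in BPN/3J, 82.7, 86.3 and 66.0 in BPH/2J at 4 weeks and 168, 119 and 118 at 22 weeks. The groups did not overlap, though the ranges of BPN/3J and 22-week BPH/2J nearly touched, and replicate 1 of 22-week BPH/2J stood well above the rest. Tcf15 rose 1.72-fold with age (log2 0.79, SE 0.15, adjusted p = 0.00252). At 22 weeks the difference between the lines was 0.33 (95% interval -0.00 to 0.67, adjusted p = 0.109). In 4-week BPH/2J it was 1.37-fold lower than in BPN/3J (log2 -0.45, SE 0.15, adjusted p = 0.0289). Adjusted p for that difference was 0.0804 without BPN/3J replicate 1, 0.101 without BPN/3J replicate 2 and 0.105 without 4-week replicate 3. In the authors' deposited table all 27 member differences had the same direction as here and 25 the same call; in that table Meox2 with age had a false discovery rate of 0.0595 and Tcf15 between the lines at 22 weeks one of 0.0456.

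With the cardiomyocyte covariate, 3 of the 9 members, Lpl, Fabp5 and Lipg, passed between 4-week BPH/2J and BPN/3J. The call of Lipg is no support, for the reason given above. Those of Lpl and Fabp5 are extrapolations in this fit, as said for Lpl above, and line and cardiomyocyte level cannot be told apart. Adjusted p was then 0.256 for Cd36, 0.984 for Fabp4, 0.157 for Angptl4, 0.592 for Meox2 and 0.818 for Tcf15. In that fit 2923 of the 15277 tested genes were called in this comparison, against 8115 without the covariate. The Meox2 rise with age did not pass either (adjusted p = 0.125), while those of Cd36, Fabp4 and Tcf15 and the falls of Fabp5 and Angptl4 did.

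Promoter sequence was at hand in RefSeq (GRCm38.p6) for 2 of the 9 members, Cd36 and Meox2, both of which rose with age. The 250 bases before each RefSeq start follow, for Cd36 at chr5:17835897-17836146 on the minus strand and for Meox2 at chr12:37108290-37108539 on the plus strand. Capitals mark matches, on either strand, to any of 9 motifs: the TATA box as TATAAA, the motif CCAAT, the Sp1 box as GGGCGG, a nuclear receptor element such as PPARs use as AGGTCA, the core of the RBPJ site as TGGGAA, a forkhead site as GTAAACA, a homeobox site as TAATTA, an E box as CAGCTG and the hypoxia element as ACGTG. No marked matches overlap.
Cd36: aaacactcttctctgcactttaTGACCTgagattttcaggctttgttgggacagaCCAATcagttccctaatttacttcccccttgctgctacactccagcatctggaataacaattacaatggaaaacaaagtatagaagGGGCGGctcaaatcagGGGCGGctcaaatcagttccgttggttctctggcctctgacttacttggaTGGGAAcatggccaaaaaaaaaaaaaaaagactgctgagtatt
Meox2: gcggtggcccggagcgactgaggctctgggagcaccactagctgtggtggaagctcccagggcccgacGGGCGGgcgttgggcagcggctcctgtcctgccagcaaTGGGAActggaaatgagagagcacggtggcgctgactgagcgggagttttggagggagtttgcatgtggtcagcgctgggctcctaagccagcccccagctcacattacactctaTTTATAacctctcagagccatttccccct
The Cd36 stretch held the CCAAT motif, the Sp1 box at a pair of places, the nuclear receptor element and the RBPJ core. The Meox2 stretch held the Sp1 box and the RBPJ core. It also held TTTATA 29 bases before the start, which is TATAAA on the strand opposite to the gene. These letters are common: of 32851 promoter stretches of the same length, 33.8% held the CCAAT motif, 32.7% the Sp1 box, 21.6% the RBPJ core, 14.0% the nuclear receptor element and 12.4% the TATA box. The letters of the forkhead, homeobox, E box and hypoxia motifs, held by 3.17% to 16.6% of stretches, were in neither window. The bases G and C made up 43.2% of the Cd36 stretch and 62.0% of the Meox2 stretch, with a median of 52.4% over all stretches. The start used in these cells was not measured.

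Levels of the members differed by orders of magnitude per kilobase. Fabp4 ranked 1 of 15277 tested genes in all 3 groups, at 10092 ± 1041 CPM per kilobase in BPN/3J, 8089 ± 420 in BPH/2J at 4 weeks and 10906 ± 891 at 22 weeks. Cd36 ranked 14, 21 and 11 in the same order of groups, and Gpihbp1 16, 28 and 23. Lpl ranked 35 in BPN/3J, 201 in BPH/2J at 4 weeks and 116 at 22 weeks. Tcf15, Meox2 and Fabp5 lay between 43.6 and 175 CPM per kilobase, Angptl4 between 9.07 and 15.4, and Lipg at or below 0.148. In BPN/3J the order from the top was Fabp4, Cd36, Gpihbp1, Lpl, Tcf15, Meox2, Fabp5, Angptl4 and Lipg, and no 2 neighbours in this order overlapped in their BPN/3J library ranges. Fabp5 had the lowest of the 3 middle levels in BPN/3J and the highest in 4-week BPH/2J, at 175 ± 1.88 against 79.9 ± 11.0 for Tcf15 and 51.8 ± 3.83 for Meox2. The length used matters for this order: with the longest protein-coding transcript in GENCODE M21 in place of the deposited length, Lpl stood above Gpihbp1 in BPN/3J (1180 against 670 CPM per kilobase) and Fabp5 stood at 157, above Meox2 and Tcf15, in that group too.

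**Figure D4:**
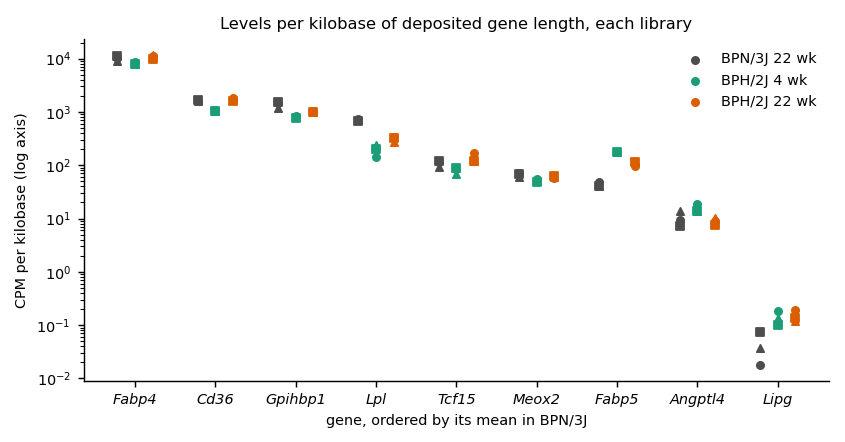
CPM per kilobase of deposited gene length (y axis, log scale) for each member (x axis, ordered by its mean in BPN/3J) in the 9 libraries, coloured by group, with symbols for replicates 1 to 3. Fabp4 stands on top in every library and Lipg at the bottom, and Fabp5 in BPH/2J stands above its neighbours Tcf15 and Meox2 at 4 weeks.

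Most capillary markers rose with age, as several members did, and between the lines they went both ways. The 8 markers, which include the water channel gene Aqp1 and Cd300lg, summed to 12097 to 14826 CPM in BPN/3J, 5680 to 6056 in 4-week BPH/2J and 9427 to 11295 in 22-week BPH/2J. With age 6 of 8 rose and none fell, and between the lines at 22 weeks 2 were higher and 3 lower in BPH/2J. Aqp1, the most abundant of them, had the group order of Lpl and Gpihbp1, at 8263 ± 1277, 2368 ± 220 and 4114 ± 552 CPM. It thus took a large part of the sum, whose order over groups need not be that of the other markers. Cd300lg was lowest at 4 weeks and overlapped between the lines at 22 weeks, at 1338 ± 62.5, 632 ± 62.6 and 1324 ± 93.1 CPM. Rgcc and Slc28a2 were lower in 22-week BPH/2J than in BPN/3J, like Aqp1. Cxcl12 and Aqp7 were higher there, 1.77-fold (adjusted p = 3.66e-05) and 1.68-fold (adjusted p = 0.00109), and neither passed for 4-week BPH/2J against BPN/3J. Car4 passed in no comparison. The general endothelial sum moved less, at 11989 to 12471, 13552 to 14713 and 14752 to 14938 CPM. The part of a changed share of capillary cells in the results for the members was not tested.

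**Figure D5:**
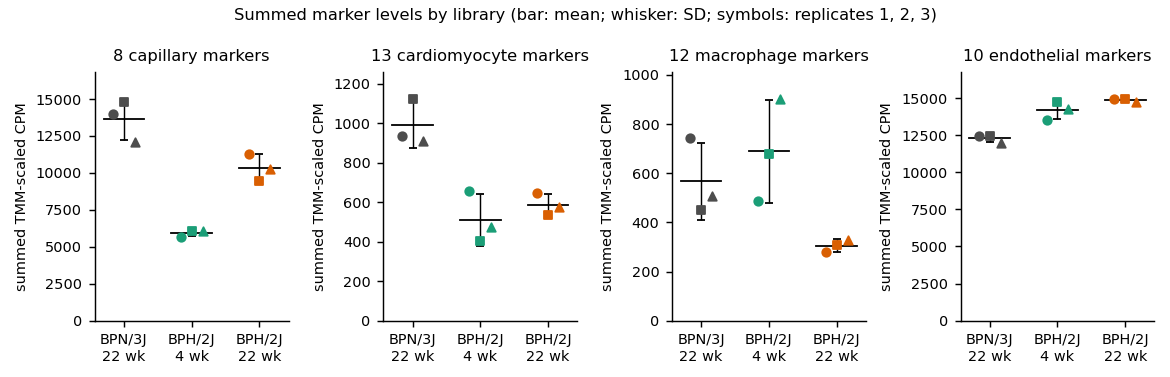
Summed TMM-scaled CPM (y axes, from 0) of capillary, cardiomyocyte, macrophage and endothelial markers in each library, by group (x axes); symbols mark replicates, bars the mean and whiskers the SD. The capillary sum is lowest in 4-week BPH/2J, the cardiomyocyte sum highest in BPN/3J and the macrophage sum lowest in 22-week BPH/2J.

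Of the other cell types, fibroblast markers summed to 462 to 874 CPM, mural markers to 1100 to 1755, blood markers to 95.3 to 197, arterial and venous endothelial markers to 1962 to 2776 and endocardial and lymphatic ones to 357 to 670 across the 9 libraries. Between the lines at 22 weeks, fibroblast markers were higher in 2 and lower in 2 of 9, mural markers higher in 1 of 8, and blood markers lower in 4 of 8. Arterial and venous markers were higher in 6 and lower in 2 of 11, and of 9 endocardial and lymphatic markers none passed in edgeR, with 1, Mmrn1, at an unadjusted p under 0.05 (0.0354). With age, arterial and venous markers rose in 7 and fell in none of 11, endocardial and lymphatic ones rose in 2 of 9, fibroblast markers rose in 2 and fell in 4 of 9, and mural and blood markers fell in 2 of 8 each. Their part in the results was not tested. Per kilobase the most abundant marker of these lists was Dcn, Rgs5, Hbb-bs, Ephb4 and Cytl1 in turn. That of the cardiomyocyte list, Mb, was at 135 ± 21.3 CPM in BPN/3J and 107 ± 16.4 in 22-week BPH/2J (adjusted p = 0.156), and that of the macrophage list, Lyz2, at 146 ± 38.5 and 92.2 ± 14.0 (adjusted p = 0.0535). Cidea, the highest adipocyte marker, was at 0.637 ± 0.305 CPM in BPN/3J and below 0.1 in both BPH/2J means.

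Among other genes of lipoprotein handling, 16 of 23 listed genes were tested, with 3 higher and 4 lower in 22-week BPH/2J than in BPN/3J. Again 3 were higher and 4 lower at 22 than at 4 weeks. Over all tested genes 38.0% passed between the lines at 22 weeks and 41.0% with age. Pcsk6, a proprotein convertase, was 1.87-fold higher in 22-week BPH/2J (adjusted p = 0.000147), and the proteoglycan gene Gpc1 was 2.05-fold lower (adjusted p = 0.00289). Lrp1, a lipoprotein remnant receptor, was 1.43-fold lower (adjusted p = 0.000709). Vldlr, a receptor that binds triglyceride-rich particles, was 1.84-fold lower in 22-week BPH/2J, at 2.57 ± 0.755 against 4.73 ± 1.02 CPM (adjusted p = 0.0140). With age Apoe, an apolipoprotein, rose 1.57-fold (adjusted p = 0.00428) and Pcsk5 1.46-fold (adjusted p = 0.0172). Lmf1, needed for lipase folding, was at 13.3 ± 0.871, 13.1 ± 1.92 and 15.8 ± 0.385 CPM in BPN/3J, 4-week and 22-week BPH/2J and did not pass in any comparison (adjusted p 0.0688 to 0.873). Apoc2, the lipase cofactor, stayed at or below 0.258 CPM and was not tested, and Angptl8 and Apoa5 were not analysed here.

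Among genes of fatty acid transport and activation, 16 of 24 were tested, with 6 higher and none lower in 22-week BPH/2J than in BPN/3J. With age 2 were higher and 3 lower. The shares of all tested genes that passed were 38.0% and 41.0%. Slc27a3, a member of the fatty acid transport protein family, was 2.46-fold higher in 22-week BPH/2J, at 10.4 ± 1.86 against 4.25 ± 1.06 CPM (adjusted p = 0.000473). Ptrf, the caveolar coat gene also called Cavin1, was 1.27-fold higher (adjusted p = 0.00410). With age, Slc27a4 fell 1.46-fold (adjusted p = 0.000418) and Slc27a5 rose 1.84-fold from under 1 CPM (adjusted p = 0.0469). Zdhhc4 and Zdhhc5, palmitoyltransferases known to act on CD36, went opposite ways with age: Zdhhc4 rose 1.55-fold (adjusted p = 0.000131) and Zdhhc5 fell 1.29-fold (adjusted p = 0.00161). Fabp3, the binding protein of heart muscle, stood at 26.7 ± 1.81, 17.4 ± 4.52 and 21.5 ± 3.47 CPM in BPN/3J, 4-week and 22-week BPH/2J, and passed only for 4 weeks against BPN/3J (1.54-fold lower, adjusted p = 0.00950).

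Of 16 genes of lipid droplets and triglyceride turnover, all tested, 1 was higher and 4 lower in 22-week BPH/2J than in BPN/3J. With age 8 rose and 1 fell. The shares of all tested genes that passed there were 38.0% and 41.0%. Pnpla2, for adipose triglyceride lipase, had the group order of Lpl, at 268 ± 14.8 CPM in BPN/3J, 114 ± 1.73 in BPH/2J at 4 weeks and 179 ± 11.1 at 22 weeks. It was lower in 22-week BPH/2J than in BPN/3J (log2 -0.59, adjusted p = 7.29e-05) and rose 1.57-fold with age (adjusted p = 4.55e-05). Lipa, the lysosomal lipase, was 1.69-fold lower in 22-week BPH/2J (adjusted p = 3.63e-05), and Gpam, the first enzyme of glycerolipid synthesis, was 1.44-fold higher (adjusted p = 0.000130). With age Lpin1 rose 1.78-fold (adjusted p = 0.000227), and Plin3, a droplet coat gene, fell 1.22-fold with overlapping groups (adjusted p = 0.0378).

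Of 24 receptors, ligands and transcription factors listed around fatty acid uptake, all tested, 7 were higher and 5 lower in 22-week BPH/2J than in BPN/3J. With age 5 rose and 7 fell. All tested genes passed at 38.0% and 41.0% in these comparisons. The nuclear receptor genes Pparg and Ppara did not pass in any comparison. Pparg stood at 132 ± 3.96, 113 ± 18.0 and 116 ± 6.01 CPM in BPN/3J, 4-week and 22-week BPH/2J (adjusted p 0.0797 to 0.754), and Ppara at no more than 0.461 CPM in any group mean. Ppard fell 1.20-fold with age (adjusted p = 0.0388) with overlapping groups. The apelin receptor gene Aplnr was 6.15-fold higher in 22-week BPH/2J than in BPN/3J, at 414 ± 73.1 against 67.3 ± 9.09 CPM (adjusted p = 4.27e-07), and fell 1.65-fold from 681 ± 43.0 CPM with age (adjusted p = 0.00149). Its ligand gene Apln was 1.65-fold higher in 22-week BPH/2J (adjusted p = 0.00641) and fell 3.36-fold with age (adjusted p = 3.51e-05). Aplnr and Apln thus had the group order of Fabp5, the reverse of that of Lpl. Meox1, the paralog of Meox2, fell 2.67-fold with age, from 135 ± 5.71 to 50.7 ± 16.7 CPM (adjusted p = 0.000172), where Meox2 rose. Klf15, a factor of lipid use in heart and muscle, was 6.15-fold lower in 22-week BPH/2J than in BPN/3J, at 5.47 ± 0.326 against 33.6 ± 2.97 CPM (adjusted p = 2.91e-07), and rose 3.53-fold with age (adjusted p = 2.46e-05). Foxo3 was 1.44-fold lower in 22-week BPH/2J (adjusted p = 0.00266) and Hif1a 1.47-fold higher (adjusted p = 4.71e-05). Epas1, for HIF2-alpha, rose 1.54-fold with age (adjusted p = 0.000166).

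The likeness of genes over the 9 libraries was measured as the root-mean-square difference of log2 CPM after centring each gene on its own mean, among genes with at least 5 CPM in their highest group. All such values share the same libraries and are a description. Between members, Fabp4 lay closest to Meox2 (0.14), then Cd36 to Fabp4 (0.16) and Gpihbp1 to Meox2 (0.19), while Lpl and Fabp5 were farthest apart (1.64). The genes nearest to Lpl were Pisd-ps1 (0.18) and Cpxm2 (0.18), and those nearest to Fabp5 were Phlda3 (0.09) and Rnf26 (0.15). Nearest to Gpihbp1 were Sumf2 (0.07) and Eif4a2 (0.09), to Cd36 Slc48a1 (0.03) and Runx1t1 (0.05), and to Fabp4 Chmp3 (0.05) and Hsd17b11 (0.05). Meox2 lay nearest to Poli (0.05) and Pdzd4 (0.06), and Tcf15 to Rmdn1 (0.09) and Dram2 (0.13). Angptl4 lay nearest to Nop58 (0.21) and 4930579G24Rik (0.21). Lipg, with its few reads, had no close gene, the nearest being Ttc8 (0.34) and Map6 (0.37).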

How the data were processed

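The table deposited by the authors holds raw counts of 18094 genes in 9 libraries, and no gene had fewer than 10 counts in all. Per the file headers the table also holds CPM, the authors' log2 fold changes, their p-values and false discovery rates, and gene lengths, which were used per kilobase. The deposited CPM equal each count over its library total. Build mm9, TopHat2 2.0.13 with Bowtie2, and featureCounts (Subread) appear in the submitters' processing notes beside CASAVA 1.8.2, FastQC and edgeR. The sources used here give neither strandedness nor annotation release nor the handling of multiply placed reads.

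The members, gene lists and tests were chosen with earlier results of these data known. From the counts, filterByExpr kept 15277 genes, all 9 members among them. All 9 libraries entered 1 TMM-scaled fit by group with the quasi-likelihood method of edgeR 4.0.16 (legacy setting), with two-sided tests and Benjamini-Hochberg adjustment over all tested genes at 0.05. Standard errors are the log2 difference over the square root of F. Named genes are all members, the 2 called genes of lowest adjusted p, per direction and pathway list, for the line and age comparisons, 13 genes named whatever their result, the most abundant marker per list, and the 2 genes most like each member. Myh6, Ckm, Tnnt2, Pln, Cd300lg, Cxcl12, Aqp7, Car4, Rgcc, Slc28a2, the measured adipocyte markers and Gm6166 were named after their values were seen. Some genes that this rule names are not reported here. A floor of 3 counts is the upper 95% limit for a count of 0 and covers counting error only. Copies were sought with BLAST 2.17.0 in GENCODE M21 transcripts and aligned with Biopython 1.88. GENCODE M21 uses GRCm38, not mm9, and its coordinates only place the sequences shown. Other tools were R 4.3.3, Python 3.11.15 and matplotlib 3.10.9, and the fit was tested on simulated data. The alternatives were RLE, upper-quartile and no scaling factors, other low-count filters, DESeq2 1.42.0, limma-voom (3.58.1), other edgeR settings, the cardiomyocyte covariate, the replicate number as a block, a threshold of 0.01 and leaving out each library. The summed Fabp5 and Gm6166 counts and the transcript lengths were added after seeing the data.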

Additional observations from a re-analysis of the deposited data

How the results depend on the processing

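Each member difference was refitted under up to 21 alternatives. The directions of all called differences of the members held in every one run. The differences that turned were all uncalled: Angptl4 between the lines at 22 weeks (0.21 with the cardiomyocyte covariate, and -0.36 to 0.11 leaving out 1 library, above 0 without BPN/3J replicate 3), Meox2 between the lines (0.017 with the covariate), and Lipg with age (-0.26 with the covariate, and -0.13 to 0.30 leaving out 1 library, below 0 without 4-week replicate 2 at -0.11 or 22-week BPH/2J replicate 1). At an adjusted p of 0.01, 3432 genes were called between the lines and 3871 with age, and 5 members with age. With the covariate, 2923 genes and 3 members, Lipg among them, were called for 4-week BPH/2J against BPN/3J, and the cause was not tested. Leaving out 1 library gave 4362 to 7117 genes and 4 members between the lines, 4606 to 7383 genes and 6 to 8 members with age, and 6968 to 8682 genes and 6 to 9 members for 4 weeks against BPN/3J. Of the called genes between the lines at 22 weeks, 52.0% were higher in BPH/2J, and 62.5% with library totals alone in place of TMM. Lipg had no value under the filter of 1 CPM. Libraries with equal replicate numbers showed no large shared deviation (residual correlations -0.16 to 0.08 for equal numbers, -0.12 to 0.14 for others). The labels do not say what the numbers mean, and these correlations cannot settle it. With the replicate block 5261, 5758 and 7723 genes were called in the 3 comparisons, Tcf15 between the lines passed (0.33, adjusted p = 0.0416), and Meox2 with age (0.22, adjusted p = 0.0634) and Fabp4 at 4 weeks against BPN/3J (-0.32, adjusted p = 0.0533) did not. Depth limits genes with few reads, among them Lipg, which was tested, and Apoc2, which was not.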
